A study of Mus musculus with 2 samples.

Results

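Transcripts of the insulin-like growth factor (IGF) system were examined in mesenchymal stromal cells (MSC) of mouse intestine that had matured as a graft. The 9 genes, picked by symbol alone from the 28692 genes of each count matrix, were the ligand genes Igf1 and Igf2, the receptor gene Igf1r and the binding protein genes Igfbp2, Igfbp3, Igfbp4, Igfbp5, Igfbp6 and Igfbp7, and each of them had UMIs in both libraries. Small intestine (SI) and large intestine (LI, colon) were dissected from midgestation EYFP (C57BL/6) embryos, sired by EYFP males on C57BL/6Nrj dams, grafted beneath the renal capsule of adult WT (wild-type) recipients and recovered 4 weeks later. Live YFP+ Itgb1+ cells of the donor were sorted. Leukocytes (CD45-), erythroid cells (Ter119-), endothelium (CD31-), epithelium (EpCAM-) and cells with L1CAM or BP3 were gated out, and 1 single-cell RNA-seq library was made from the LI grafts and 1 from the SI grafts. The LI library pooled 3 grafts, while the number of grafts behind the SI library was not stated. Which of the 10x Genomics 3′ and 5′ kits served which library was not stated either, so gut segment and library chemistry cannot be told apart.

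IGF-I and IGF-II are small secreted hormones that bind the IGF-I receptor, a tyrosine kinase related to the insulin receptor, and promote growth and survival of cells. In the intestine they are made largely by stromal cells, and the overlying epithelium carries the receptor. Outside the cell the ligands are held by IGF binding proteins, which lengthen their half-life, keep them from the receptor or, once cut by proteases, hand them over. IGFBP7 is a distant relative that binds IGFs weakly and sits in the matrix around blood vessels.

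Of 11568 LI barcodes, 9873 passed as cells (500 or more genes, mitochondrial UMIs of 10% or less), and of 9631 SI barcodes 7910 did. The deposited totals were 63348069 and 54918006 UMIs, and the median cell held 5288 and 5682 UMIs. Marker genes placed 8253 LI and 5910 SI cells among the fibroblasts (FB). These FB were divided into PDGFRAhi FB (789 LI and 511 SI cells), CD81 FB (923 and 1213), Adventitial-like FB (843 and 451), Fgfr2 FB (1145 and 930) and the remaining Other FB (4553 and 2805). Pericytes (558 and 978), smooth muscle cells (SMC, 481 and 598) and interstitial cells of Cajal (ICC, the gut pacemaker cells, 335 and 50) made up the other classes compared, 8 in all. No member of the IGF set served as a marker. The highest subset score of 1503 LI and 985 SI cells lay within 0.1 of the limit for a subset, and 26 barcodes occurred in both libraries. Among the sorted cells, 55 LI and 35 SI cells met the immune markers, 8 and 8 the endothelial and 4 and 41 the epithelial markers.

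Levels are given as CPM, the UMIs of a gene per 1000000 UMIs of all cells of a class in a library, with exact Poisson 95% intervals, and shares of cells with exact Clopper-Pearson intervals. With 1 library per segment and cells that are no replicates of it, no difference has a replicate check, no p-value is given and the intervals cover counting error only. A log2 ratio sets LI over SI after adding 1 CPM to each level.

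In FB, Igfbp3 and Igfbp5 were the 2 members at least 2-fold higher in the LI graft, of 7 members that reached 10 CPM in FB of at least 1 library (all but Igf2 and Igfbp2). None of the 7 was 2-fold higher in the SI graft. The Igfbp5 call was lost in 5 alternatives, with log2 ratios of 0.99 with the mean of the cells' own CPM, 0.65 in FB without MHC class II UMIs, 0.43 without 1 LI cluster described later, 0.37 with FB subsets weighted equally and 0.22 in female cells. Over all 8630 genes at that level, 1.95% were at least 2-fold higher in LI and 1.6% in SI. The median log2 ratio was 0.23 over the 7 members and -0.01 over all genes. Igfbp3 lies on chromosome 11 (7206086 to 7213923, minus strand, mm10), 3539 bases from Igfbp1, which had 0 UMIs in LI FB and 1 UMI in SI FB. Igfbp5 lies on chromosome 1 (72857932 to 72874884, minus strand) and ends 5457 bases from the end of Igfbp2, which runs towards it on the plus strand.

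The 250 bases before the RefSeq start of these 2 genes (GRCm38.p6, both on the minus strand) are shown because these members passed the 2-fold mark, Igfbp5 narrowly. Igfbp3 is at chr11:7213924-7214173 and Igfbp5 at chr1:72874866-72875115. Capitals mark matches to the TATA-like letters TATNNA on the strand of the gene or its complement, overlapping matches joined.
Igfbp3: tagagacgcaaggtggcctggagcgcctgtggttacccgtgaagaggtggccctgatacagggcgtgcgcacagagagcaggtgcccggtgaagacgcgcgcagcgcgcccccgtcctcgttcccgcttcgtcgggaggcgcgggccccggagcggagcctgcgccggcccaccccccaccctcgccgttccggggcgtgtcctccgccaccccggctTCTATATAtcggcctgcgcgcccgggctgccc
Igfbp5: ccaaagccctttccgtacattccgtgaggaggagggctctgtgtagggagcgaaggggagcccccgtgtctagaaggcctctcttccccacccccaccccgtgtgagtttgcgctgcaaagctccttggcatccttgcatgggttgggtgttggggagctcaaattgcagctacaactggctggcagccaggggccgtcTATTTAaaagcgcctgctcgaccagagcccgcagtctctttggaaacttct
The match nearest to the start lay 30 bases before it in Igfbp3, where 3 matches overlap, and 51 bases before it in Igfbp5. TATNNA was chosen after both sequences had been read, and it occurs in 56.2% of 32851 promoters of the same length. The stricter TATAAA occurs in 12.4% of them and in the promoters of Igfbp4 and Igfbp6, but not in these 2, and the GC box GGGCGG, found in 32.7%, was absent from both. GC content was 73.2% for Igfbp3 and 58.8% for Igfbp5. No peak or methylation data were measured, so the sequences are a description.

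**Figure D1:**
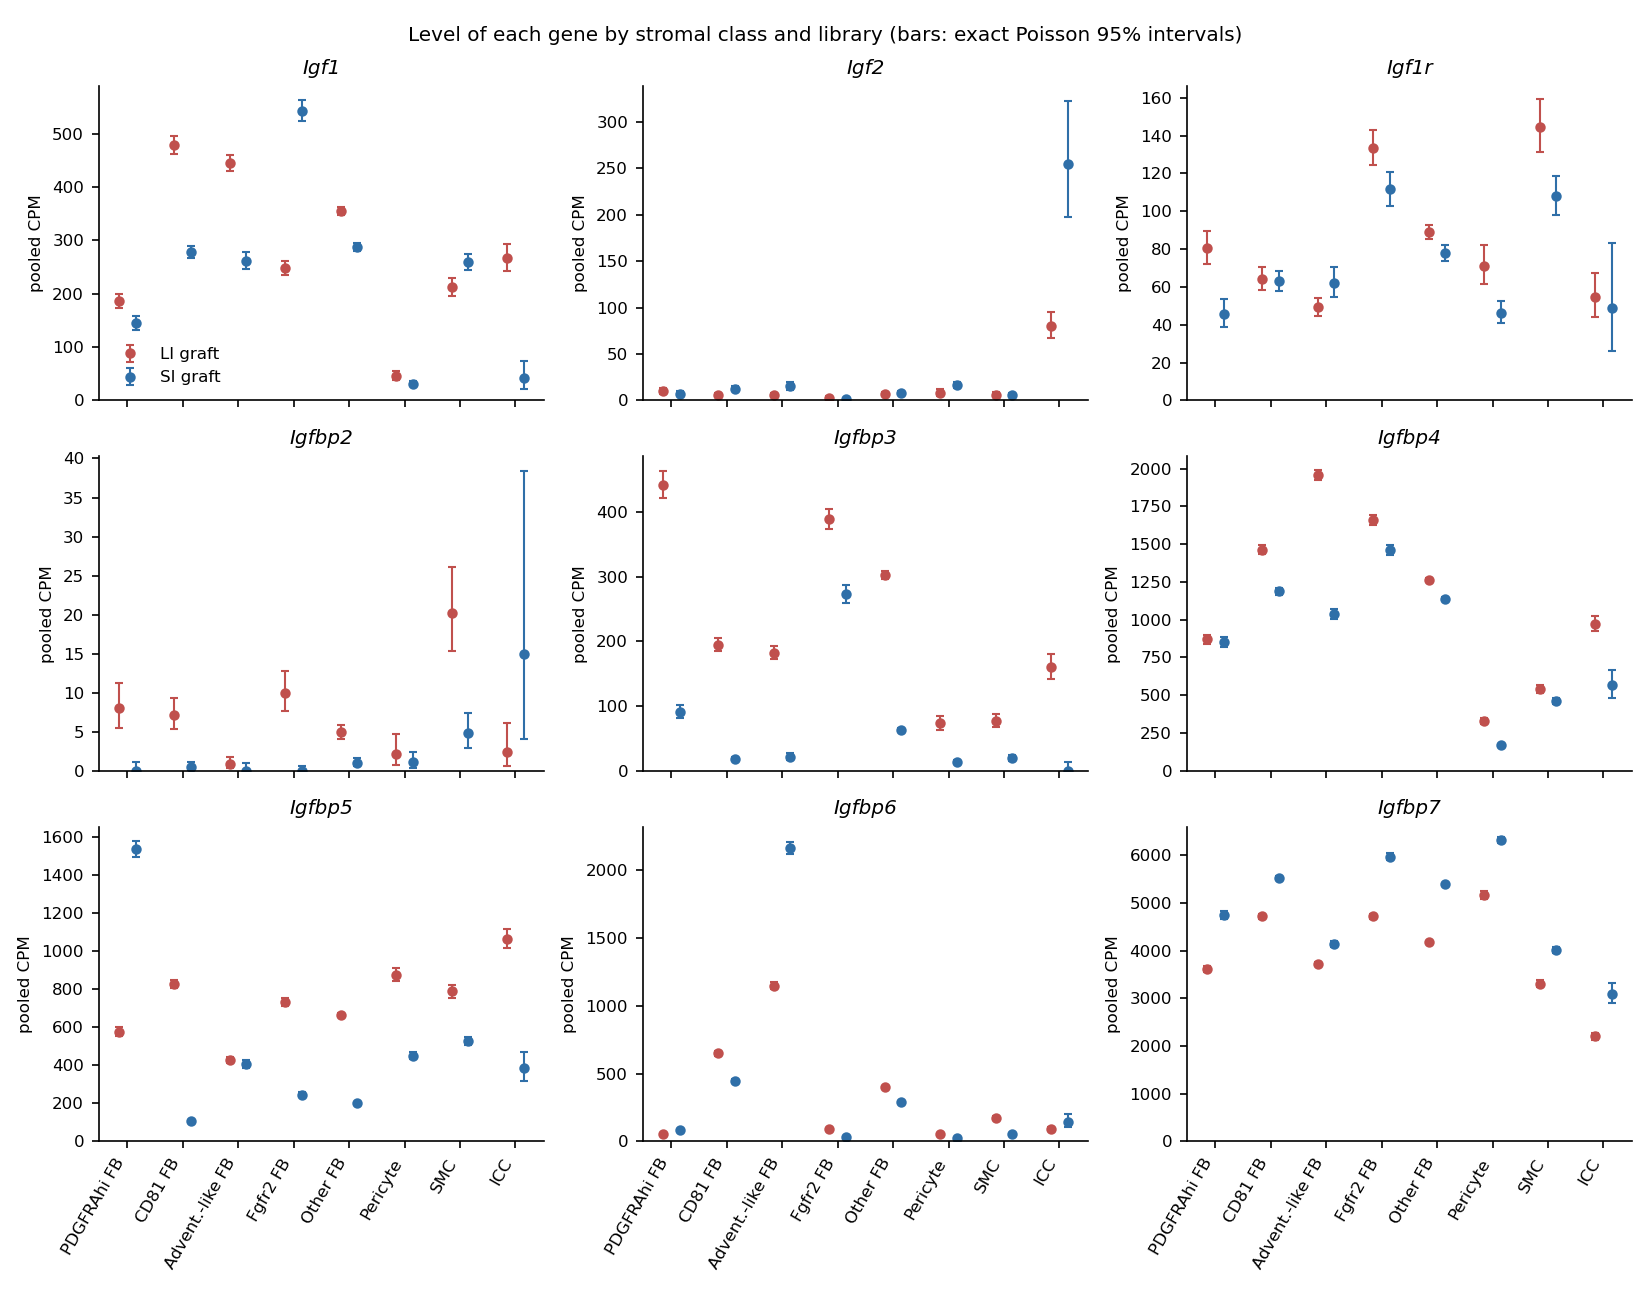
Level of each member (vertical axis, pooled CPM from 0, a separate scale for each gene) in 8 stromal classes (horizontal axis) of the LI graft (red) and the SI graft (blue), with exact Poisson 95% intervals as bars. Igf2 stands out in ICC (80.6 CPM in LI and 255 CPM in SI), Igfbp6 in Adventitial-like FB, and Igfbp3 was higher in LI in each of the 8 classes.

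Igf1, the main postnatal IGF ligand, was spread over all FB subsets and SMC and was lowest in pericytes of both grafts, but its highest class differed between them. The LI graft had 479 CPM in CD81 FB (95% interval 463 to 495) and 445 CPM in Adventitial-like FB. The SI graft had 543 CPM in Fgfr2 FB (524 to 563), with 288 CPM in Other FB as the next class. Fgfr2 FB of the LI graft were at 248 CPM, which gave a log2 ratio of -1.13 (-1.22 to -1.04), the only FB subset in which Igf1 was lower in LI. By sex, the levels were 219 CPM in LI and 589 CPM in SI among female Fgfr2 FB (log2 ratio -1.42) and 563 and 473 CPM among male ones, of which LI had 41 cells (0.25, -0.01 to 0.51). Over all cells, CD81 FB (278 CPM in SI) and Adventitial-like FB (262 CPM in SI) were higher in LI by log2 ratios of 0.78 and 0.76. The levels in pericytes were 45.8 CPM in LI and 30.9 CPM in SI.

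The share of cells with an Igf1 UMI was 75.0% of LI and 51.8% of SI cells among CD81 FB, and 52.6% of LI and 76.5% of SI cells among Fgfr2 FB. After each cell was thinned to 2000 UMIs, the Fgfr2 FB shares were 31.9% and 55.2%. The share did not follow the level in PDGFRAhi FB, which were at 186 CPM in LI and 145 CPM in SI but had Igf1 in 42.1% and 47.2% of cells (24.1% and 22.9% after thinning). The 41 SI cells with epithelial markers, taken as a reference, had Igf1 in 9.76% (2.72% to 23.1%) at a median of 12276 UMIs, against 5674 UMIs in SI Fgfr2 FB. Whether stromal transcripts in these epithelial cells came from free RNA or from doublets, which were left in, was not tested. SI pericytes had Igf1 in 7.77% at a median of 4523 UMIs. After thinning to 2000 UMIs the shares were 3.63% of SI pericytes and 2.63% of the epithelial cells. The levels were 30.9 and 24.1 CPM with overlapping intervals, so Igf1 in SI pericytes was not distinguishable from the 41 reference cells. The reference level rests on 13 UMIs in 4 cells. ICC were at 267 CPM in LI (444 UMIs) and 41.2 CPM in SI, where the level rests on 11 UMIs in 6 of 50 cells (log2 ratio 2.67, 1.83 to 3.65).

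Igf2, the ligand that predominates in the fetus and is transcribed from the paternal allele, was low outside ICC. ICC were the highest class in both grafts, with 80.6 CPM in LI (67.5 to 95.5) and 255 CPM in SI (198 to 323). An Igf2 UMI was found in 23.9% of LI ICC (19.4% to 28.8%) and in 58.0% of SI ICC (43.2% to 71.8%), against 3.05% and 3.82% of FB and 2.44% of the SI epithelial cells. The next class after ICC was PDGFRAhi FB at 10.2 CPM in LI and pericytes at 16.4 CPM in SI, and Fgfr2 FB were lowest in both (2.91 and 1.44 CPM). The log2 ratio in ICC was -1.65 (-2.08 to -1.21), higher in SI, and the SI value comes from 68 UMIs in 29 cells.

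H19, the maternally expressed noncoding RNA of the same imprinted domain, lies 72622 bases from Igf2 on chromosome 7. It was also highest in ICC of the SI graft, at 472 CPM (393 to 562), against 45.1 CPM in ICC of the LI graft. In the LI graft the highest class for H19 was Adventitial-like FB at 67.3 CPM, and those cells held 84.1 CPM in SI. Over all FB, H19 was at 38.9 CPM in LI and 35.8 CPM in SI.

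Igf1r, the receptor tyrosine kinase that binds both ligands, was evenly spread. SMC (145 CPM in LI, 108 CPM in SI) and Fgfr2 FB (133 and 112 CPM) were the highest classes of both grafts, and their intervals overlapped within each graft. The lowest classes were Adventitial-like FB in LI (49.1 CPM) and PDGFRAhi FB in SI (45.9 CPM), so the range from lowest to highest was 2.95-fold in LI and 2.43-fold in SI. Between the grafts, FB differed by a log2 ratio of 0.16 (0.09 to 0.23). A UMI was found in 38.4% of LI FB and 36.3% of SI FB, and in 17.1% of the 41 SI epithelial cells. PDGFRAhi FB showed the widest difference among the 8 classes, at 80.6 CPM in LI and 45.9 CPM in SI (log2 ratio 0.80).

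Igfbp2, a binding protein abundant in fetal tissue, was rare in both grafts and more frequent in the LI graft. In FB it had 286 UMIs in 131 of 8253 LI cells and 22 UMIs in 12 of 5910 SI cells, or 5.45 CPM against 0.563 CPM, below the 10 CPM minimum for the comparison across genes. An Areg-led LI cluster, 8.23% of the LI cells, held 37.6% of the LI Igfbp2 UMIs, and without it LI FB were at 3.46 CPM. Cells called male, 777 of the LI FB, held 38.5% of the Igfbp2 UMIs of LI FB. SMC of the LI graft were the highest class, at 20.2 CPM (15.3 to 26.2) with a UMI in 6.24% of cells, against 4.80 CPM and 1.67% in SI. In Fgfr2 FB the LI graft had 62 UMIs in 38 cells and the SI graft 0 in 930 cells, which is at least 18.6-fold higher in LI when 3 UMIs are taken as the limit for a count of 0. The 33 UMIs in LI PDGFRAhi FB came from 4 cells. In ICC the SI graft had 4 UMIs in 2 cells and the LI graft 4 UMIs in 3 cells.

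Igfbp3, which carries most IGF in the circulation and is also made locally, differed between the grafts in the same direction in all 8 classes, as Igfbp7 did the other way. Igfbp3 was higher in LI in all 8 with intervals that exclude a log2 ratio of 0. The same held in female cells alone for the 7 classes with at least 50 cells in both grafts. In male cells the 3 classes with that many were also higher in LI, while Fgfr2 FB were at 193 CPM in LI (41 cells) and 229 CPM in SI (log2 ratio -0.25, -0.70 to 0.18). The level in FB was 291 CPM in LI (286 to 296) and 81.5 CPM in SI (78.7 to 84.3), a log2 ratio of 1.82 (1.77 to 1.88). An Igfbp3 UMI was found in 41.1% of LI and 16.6% of SI FB at medians of 5434 and 5917 UMIs, and in 27.4% and 9.62% after thinning to 2000 UMIs. Of the SI epithelial cells, 1 of 41 (2.44%) had one.

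PDGFRAhi FB and Fgfr2 FB held the highest Igfbp3 levels in both grafts, in opposite order with these classes, although both grafts were highest in Fgfr2 FB when classes were taken from clusters (435 CPM in LI and 195 CPM in SI). The LI graft had 442 CPM in PDGFRAhi FB and 389 CPM in Fgfr2 FB. The SI graft had 91.2 CPM in PDGFRAhi FB and 273 CPM in Fgfr2 FB. The difference between grafts was therefore smallest in Fgfr2 FB (log2 ratio 0.51) and large in CD81 FB (195 and 18.9 CPM, log2 ratio 3.30) and Adventitial-like FB (183 and 21.9 CPM, log2 ratio 3.01). SI ICC had 0 UMIs in 50 cells, against 161 CPM in LI ICC, at least 14.3-fold higher in LI. Within the grafts, the cluster with the highest Igfbp3 level was an Agt- and Edil3-led FB cluster of LI (693 CPM, 550 cells) and a Col6a5- and Adamdec1-led FB cluster of SI (308 CPM, 821 cells) that held 32.5% of the Igfbp3 UMIs of its library.

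**Figure D2:**
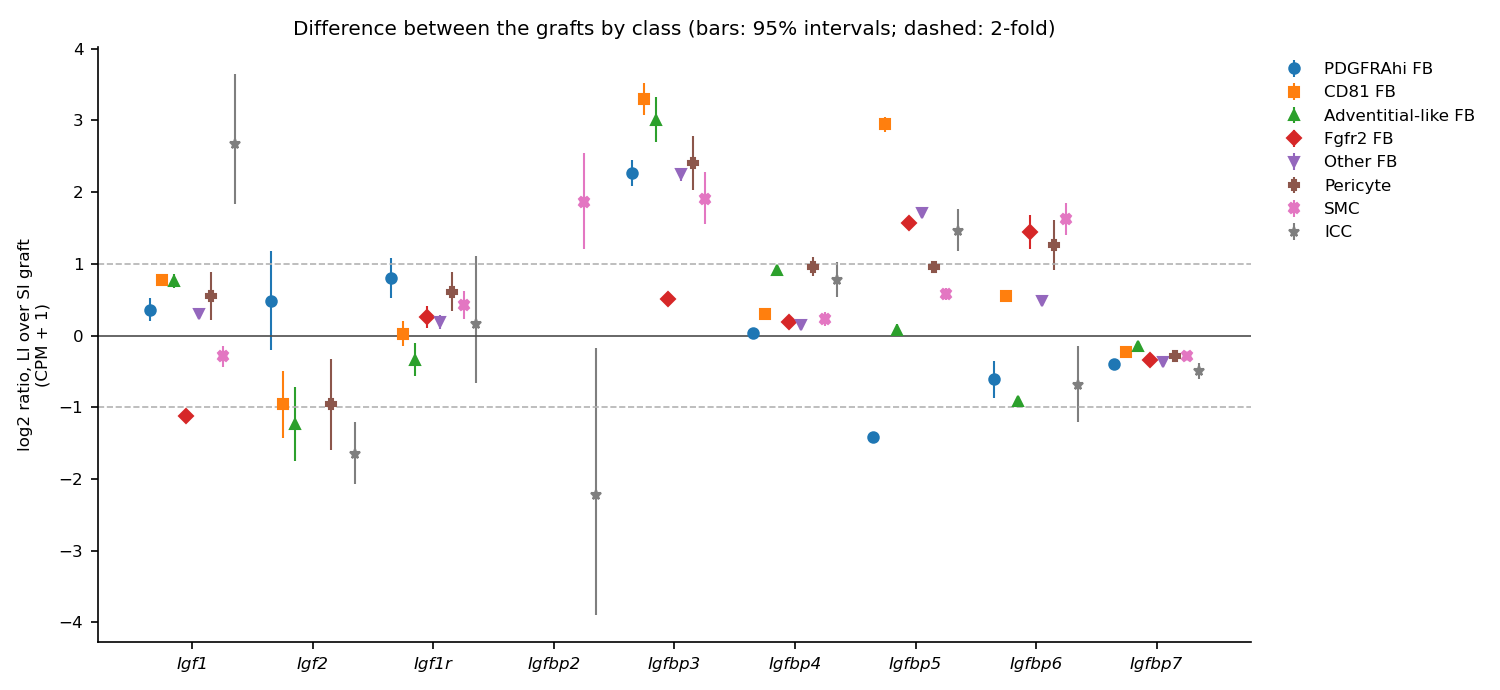
Log2 ratio of LI over SI (vertical axis, after adding 1 CPM) for each member (horizontal axis) and class (symbols), with exact 95% intervals for counting error, for classes with at least 10 CPM in 1 graft and UMIs in both. Dashed lines mark 2-fold: Igfbp3 lies above 0 in every class drawn, Igfbp7 below 0 in every class, and Igfbp5 runs from -1.41 in PDGFRAhi FB to 2.95 in CD81 FB.

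Igfbp4, a binding protein that blocks IGF action until the protease PAPP-A cuts it, was abundant in all FB and low in mural cells. The level in FB was 1412 CPM in LI and 1161 CPM in SI (log2 ratio 0.28), and 90.1% and 91.7% of FB had a UMI. The SI epithelial cells had one in 36.6%, and SI pericytes in 35.2%. The levels were 226 CPM in the epithelial cells, 165 CPM in the SI cluster named epithelial and 168 CPM in SI pericytes. SI pericytes were thus not set apart from this reference, and the source of their Igfbp4 UMIs was not tested. Adventitial-like FB were highest in LI at 1958 CPM (1927 to 1988) and were at 1038 CPM in SI (log2 ratio 0.91). Fgfr2 FB were highest in SI at 1461 CPM and second in LI at 1658 CPM. Pericytes were lowest in both grafts (328 CPM in LI and 168 CPM in SI), and 7 of 8 classes were higher in LI with intervals that exclude 0, PDGFRAhi FB being the exception (870.0 and 850.4 CPM).

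Igfbp5, a binding protein that attaches to extracellular matrix, had a different class pattern in each graft. The FB level was 651 CPM in LI (644 to 658) and 318 CPM in SI (313 to 324), a log2 ratio of 1.03 (1.0 to 1.06), just past the 2-fold mark. The LI graft was flat across classes: ICC were highest at 1064 CPM, followed by pericytes at 876 CPM and CD81 FB at 825 CPM, and Adventitial-like FB were lowest at 426 CPM, a 2.50-fold range. The SI graft was uneven: PDGFRAhi FB were highest at 1536 CPM (1494 to 1579), SMC were next at 527 CPM, and CD81 FB were lowest at 106 CPM, a 14.5-fold range. With all cells pooled, PDGFRAhi FB were the one class lower in LI (577 CPM, log2 ratio -1.41, -1.48 to -1.34). CD81 FB showed the widest difference in the other direction (log2 ratio 2.95, 2.85 to 3.05).

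Within PDGFRAhi FB of the SI graft, Igfbp5 was concentrated in a minority of cells. No UMI was seen in 296 of the 511 cells, while 144 cells (28.2%) with 5 or more UMIs held 97.0% of them, up to 198 in 1 cell. In LI, 83 of 789 cells (10.5%) had 5 or more and held 90.6% of the UMIs, with a maximum of 221, and 569 had none. Other classes were uneven too, with 91.2% of the UMIs in 25.0% of LI CD81 FB. The high cells had deeper profiles than the cells at 0, with medians of 6937 and 5169 UMIs in SI and of 6870 and 4658 UMIs in LI. Pdgfra, Wnt5a and Bmp5 were markers of the PDGFRAhi FB gate, so their presence in both kinds of SI cell is no check of the class. Pdgfra was at 1412 CPM in the high cells and 993 CPM in those at 0, Wnt5a at 431 and 408 CPM and Bmp5 at 214 and 324 CPM.

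Genes that differed between high and zero cells describe these 2 sets of PDGFRAhi FB, and they were picked after the Igfbp5 values were seen. Among the 8 SI genes with the largest folds in high cells, the acute-phase gene Saa3 was at 74.2 CPM in high cells and 2.27 CPM in cells at 0, the chemokine gene Cxcl14 at 1262 and 383 CPM, Trp53i11 at 478 and 162 CPM, and the thyroid hormone activating enzyme gene Dio2 at 209 and 67.6 CPM. Among the 8 with the smallest were the matrix gene Npnt (3.91 and 147 CPM), the cell cycle gene Ube2c (21.5 and 176 CPM), the protease gene Mmp9 (0.977 and 54.5 CPM), the angiotensinogen gene Agt (5.86 and 161 CPM) and the neuregulin gene Nrg1 (3.91 and 118 CPM). Trp53i11 (183 and 42.4 CPM in LI) and Tnni2 (57.6 and 12.5 CPM in SI, 86.2 and 12.1 CPM in LI) were among the 8 largest in both grafts. The lipid phosphatase gene Plpp3, among the 8 smallest in LI (338 and 1261 CPM), was at 95.7 and 474 CPM in SI, outside the 8 there. The chemokine gene Ccl11 (252 and 27.1 CPM) and the BMP antagonist gene Grem1 (210 and 23.8 CPM) were higher in LI high cells, and Wnt4 was lower (157 and 635 CPM). Leading genes of other classes and clusters moved with this split. Grem1 is among the 10 leading genes of LI CD81 FB and, with Alpl (62.0 and 4.02 CPM), of the Areg-led LI cluster, and Agt, Saa3 and Ccl11 are among those of SI Fgfr2 FB. Of the genes higher in the SI cells at 0, Npnt is a leading gene of SMC in both grafts, Ube2c of a cycling cluster in each graft and Mmp9 of the LI immune cells. Their part in the split was not tested. Of the other members, Igfbp3 was at 70.3 CPM in high and 104 CPM in zero cells of SI and at 422 and 438 CPM in LI.

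**Figure D3:**
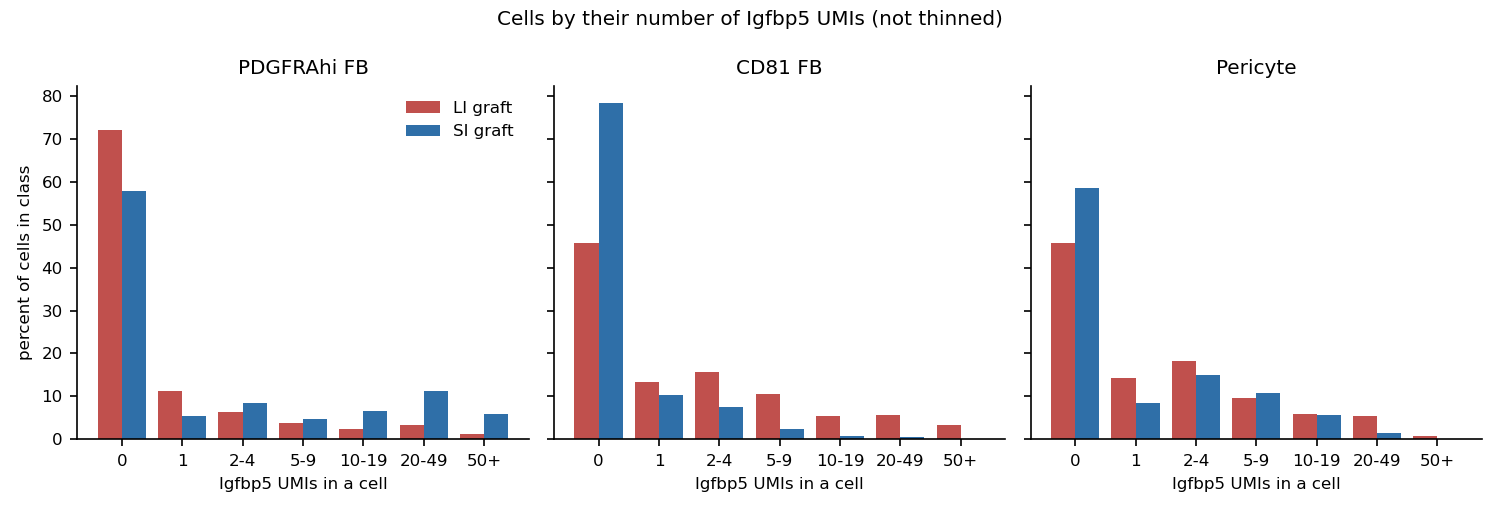
Percent of the cells of a class (vertical axis, from 0) by their number of Igfbp5 UMIs (horizontal axis, not thinned) in PDGFRAhi FB, CD81 FB and pericytes of the LI graft (red) and the SI graft (blue). PDGFRAhi FB of the SI graft have the larger share of cells with 5 or more UMIs (28.2% against 10.5%), and CD81 FB of the LI graft have the larger share there (25.0% against 3.71%).

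The grafts mixed cells of male and female embryos, and the FB difference in Igfbp5 moved with that mix. A cell was called male from a UMI of Ddx3y, Eif2s3y, Kdm5d or Uty without Xist, and female from Xist without those genes. The LI graft held 889 male cells (9.0%) and the SI graft 1922 (24.3%), and 1017 and 1635 cells had no clear call. In LI FB, Igfbp5 was at 1502 CPM in the 777 male and 403 CPM in the 6677 female cells, a log2 ratio of male over female of 1.90 (1.86 to 1.93). In SI FB it was at 286 CPM in the 1383 male and 345 CPM in the 3427 female cells (log2 ratio -0.27, -0.33 to -0.21). Between the grafts, the log2 ratio of LI over SI was 0.22 in female FB and 2.39 in male FB. Cells of one sex come from other embryos than cells of the other, so sex and embryo cannot be told apart.

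The higher Igfbp5 in male LI cells was seen in each of the 6 classes compared by sex, which hold 29 to 436 male LI cells and in 3 cases fewer than 50. It was 1698 against 459 CPM in PDGFRAhi FB (29 male cells), 1642 against 388 CPM in CD81 FB, and 2386 against 554 CPM in pericytes (38 male cells). In the female cells alone, PDGFRAhi FB kept a lower level in LI (459 against 1326 CPM, log2 ratio -1.53) and CD81 FB a higher one (388 against 145 CPM, log2 ratio 1.42). Female Adventitial-like FB were also lower in LI (282 against 582 CPM, log2 ratio -1.04, -1.16 to -0.93). Among male cells the PDGFRAhi FB of the grafts were not separated (1698 CPM in 29 LI cells and 1836 CPM in SI, log2 ratio -0.11, -0.30 to 0.07). Igfbp3 differed between grafts in both sexes, at 284 CPM in LI and 91.3 CPM in SI among female FB (log2 ratio 1.63) and at 341 and 60.8 CPM among male FB (log2 ratio 2.47). Igf1 and Igfbp4 were higher in male FB of both grafts. Igf1 was at 502 CPM in male and 319 CPM in female FB of LI, and at 356 and 263 CPM in SI. Igfbp4 was at 2169 and 1220 CPM in LI, and at 1348 and 1013 CPM in SI.

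**Figure D4:**
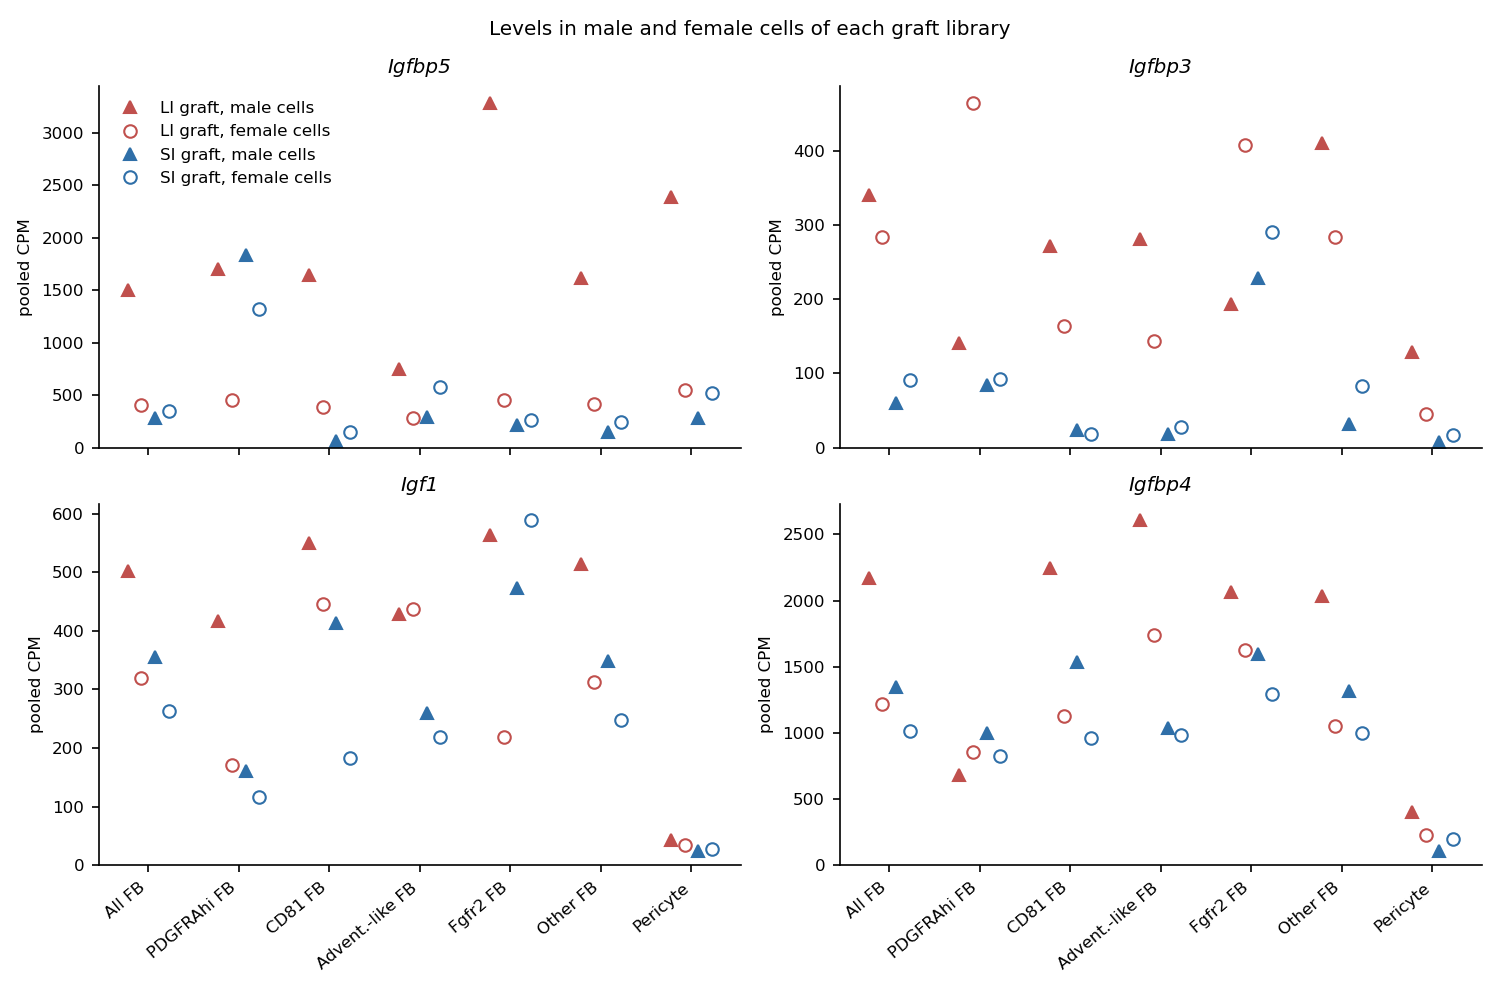
Pooled CPM (vertical axis, from 0, a separate scale for each gene) of Igfbp5, Igfbp3, Igf1 and Igfbp4 in male cells (triangles) and female cells (open circles) of the LI graft (red) and the SI graft (blue), by class (horizontal axis). Male LI cells lie above female LI cells for Igfbp5 in each class drawn, while in the SI graft the male cells are higher in PDGFRAhi FB alone.

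The male LI cells were gathered in 2 clusters. Of the 889, 47.4% fell in a cluster of 813 FB-rich cells led by Areg, Ramp3 and Ereg, and 41.3% in a cluster of 626 cells led by Ctla2a, Cxcl9 and MHC class II genes. The Areg-led cluster had the highest Igfbp5 level of the LI graft, 2723 CPM, and held 36.8% of the Igfbp5 UMIs of the library in 8.23% of its cells. Its male cells were at 2957 CPM, its 64 female cells at 1571 CPM and its 328 cells with no clear call at 2650 CPM, so that its female cells also lay above the 403 CPM of female LI FB. The MHC class II-led cluster had the highest Igfbp4 level of LI (2470 CPM). There Igfbp5 was at 590.2 CPM in the 367 male cells and at 952 CPM in the 37 female cells, the reverse order. Without the Areg-led cluster, a comparison added after the values had been seen, Igfbp5 in FB was at 429 CPM in LI and 318 CPM in SI, and Igfbp3 at 272 and 81.5 CPM. MHC class II UMIs were found in 72.8% of male and 22.5% of female LI FB, and in 52.7% and 25.6% of SI FB. Their part in the levels was not tested.

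**Figure D5:**
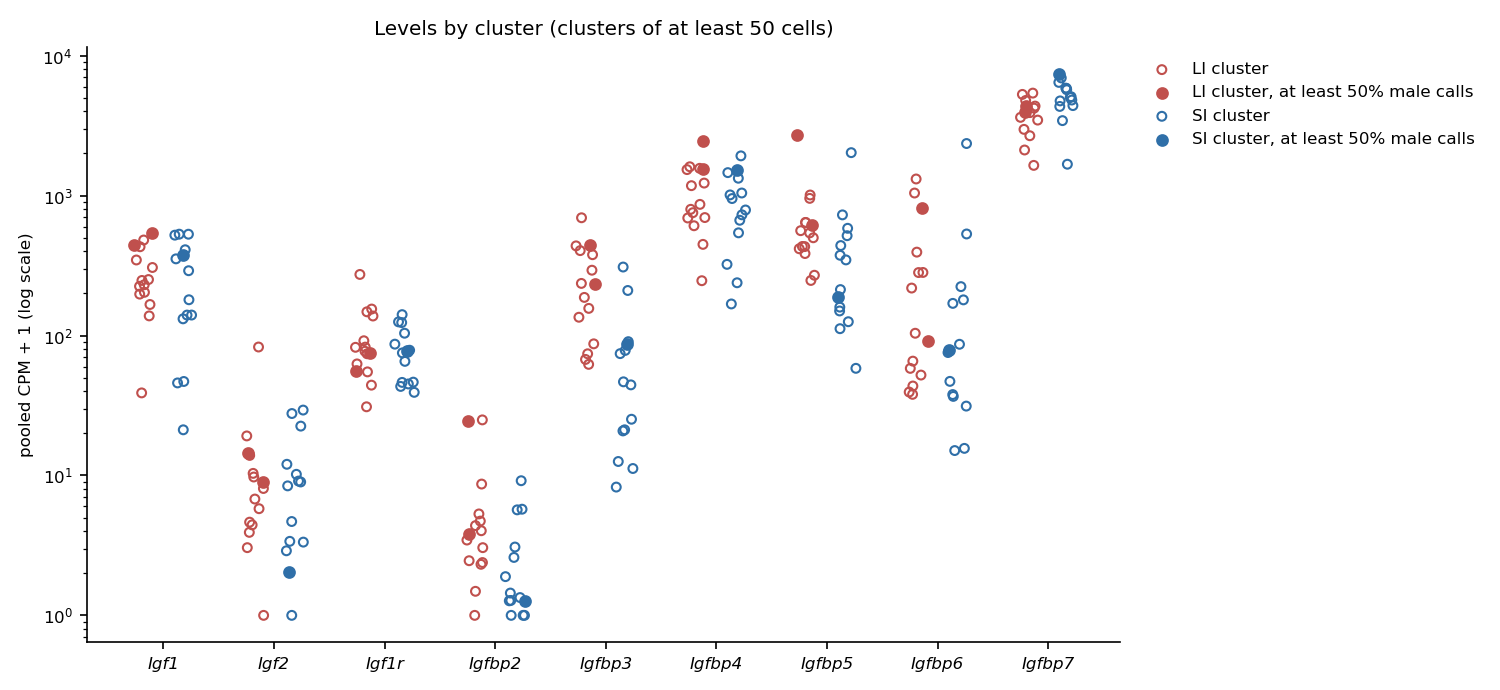
Pooled CPM plus 1 (vertical axis, log scale) of each member (horizontal axis) in every cluster of at least 50 cells of the LI graft (red) and the SI graft (blue), 1 point per cluster, filled where at least 50% of the cells were called male. The Areg-led LI cluster is the highest point for Igfbp5 (2723 CPM), and the Pi16-led SI cluster the highest for Igfbp6 (2355 CPM).

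Igfbp6, which prefers IGF-II over IGF-I, marked Adventitial-like FB in both grafts. Their level was 1148 CPM in LI (1125 to 1172) and 2164 CPM in SI (2118 to 2211), and CD81 FB were next at 649 CPM in LI and 443 CPM in SI. The lowest class was PDGFRAhi FB in LI, 21.7-fold lower at 52.8 CPM. In SI it was pericytes at 22.2 CPM, below the 42.6 CPM of the SI epithelial cells. A UMI was found in 81.6% and 82.3% of Adventitial-like FB, in 12.2% of LI PDGFRAhi FB and in 3.58% of SI pericytes, the last below the 4.88% of the SI epithelial cells (1.87% and 2.63% after thinning to 2000 UMIs). Over all FB the grafts were close, at 485 CPM in LI and 455 CPM in SI, a log2 ratio of 0.09 (0.06 to 0.12). That small ratio hides opposite signs, with -0.91 in Adventitial-like FB and 1.45 in Fgfr2 FB, and it turned to -0.08 in female cells and to -0.36 with the subsets weighted equally. In SI, 63.4% of the Igfbp6 UMIs lay in the 737 cells of 1 cluster led by Pi16, at 2355 CPM. In LI they were split over a Cthrc1-led cluster (1313 CPM), a Myoc-led cluster (1042 CPM) and the MHC class II-led cluster (816 CPM).

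Igfbp7 was found in nearly every stromal cell, with a UMI in 98.2% of LI and 99.2% of SI FB. Pericytes were the highest class of both grafts, at 5175 CPM in LI (5091 to 5261) and 6317 CPM in SI (6251 to 6384), and ICC were the lowest, at 2205 and 3100 CPM. The range across classes was 2.35-fold in LI and 2.04-fold in SI. In contrast to Igfbp3, all 8 classes were higher in SI, with log2 ratios from -0.49 in ICC to -0.15 in Adventitial-like FB, and in female cells 6 of the 7 classes with at least 50 cells were. The exception was CD81 FB (4736 and 4688 CPM, log2 ratio 0.01, -0.01 to 0.04). The FB levels were 4201 and 5325 CPM (log2 ratio -0.34, -0.35 to -0.33), below 2-fold. The 41 SI epithelial cells had Igfbp7 in 43.9% at 955 CPM, below every class compared, and the SI cluster named epithelial (42 cells) was at 470 CPM. The gene overlaps Polr2b on the other strand (23.0 and 25.5 CPM in FB), which 10x counting keeps apart by strand.

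All 9 members reached 10 CPM in some class of both grafts, and 3 of them, Igf2 (ICC), Igfbp6 (Adventitial-like FB) and Igfbp7 (pericytes), had the same highest class in both. Over all 9838 genes at that level, 50.4% did. With classes taken from clusters, ICC fell under the minimum and Adventitial-like FB could not be compared, since 1 LI cluster (Cthrc1-led, 1313 CPM of Igfbp6) but no SI cluster took that name and the Pi16-led SI cluster was placed in Other FB. Igf2 and Igfbp6 then could not keep their class, and Igfbp7 was highest in CD81 FB of LI (5401 CPM). Of the 6 members whose highest class changed, Igf1r changed between SMC and Fgfr2 FB, whose intervals overlap, and Igfbp2 rests on 4 UMIs in SI ICC. The largest cluster behind a class was a different one in each graft by construction, since the libraries were clustered apart. CD81 FB and Adventitial-like FB of LI drew most on the same Myoc-led cluster (32.7% and 34.3% of each class), whereas those of SI drew most on a Pcolce2-led and a Pi16-led cluster.

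The rest of the IGF pathway was taken from a list of 25 genes. Of the 19 that reached 10 CPM in FB, 4 were at least 2-fold higher in LI and 1 in SI, against 1.95% and 1.6% of all genes, and the median log2 ratio was 0.12. The counts, kept to these 19 genes, depended on the cells and the pseudocount. They were 4 and 0 in female cells and 1 and 5 in male cells (added after the data were seen). With a pseudocount of 5 CPM they were 2 and 1, where Htra1 and Ctgf, both with intervals that hold the 2-fold mark, were at 0.99 on the log2 scale. The LI-higher genes were the protease genes Pappa (37.6 CPM in LI and 16.1 CPM in SI) and Htra1 (369 and 184 CPM), and Ctgf (205 and 101 CPM) and Nov (60.8 and 16.7 CPM), whose matricellular proteins have an IGFBP-type domain. Pappa encodes PAPP-A, the enzyme that cleaves IGFBP4 and IGFBP5. The SI-higher gene was Stc2, an inhibitor of PAPP-A, at 43.0 CPM in LI and 95.6 CPM in SI. In female cells alone the log2 ratios were 1.51 for Pappa, 1.42 for Htra1, 0.70 for Ctgf, 1.98 for Nov and -0.86 for Stc2, so Ctgf and Stc2 fell under 2-fold there. In male FB the log2 ratios were -0.01 for Htra1 (227 and 229 CPM), -0.63 for Nov (9.02 and 14.5 CPM), 0.95 for Pappa, 1.72 for Ctgf (203 and 60.8 CPM) and -2.12 for Stc2 (23.4 and 105 CPM), so of the LI-higher genes Ctgf alone passed 2-fold there. Pappa2, the related protease gene, was under 2-fold over all FB (14.7 and 9.0 CPM) but past it in female FB (11.7 and 3.19 CPM, log2 ratio 1.60).

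Pappa was highest in PDGFRAhi FB of both grafts (92.5 and 52.6 CPM), and so was Htra1 (517 and 372 CPM). Stc2 was highest in CD81 FB of both (66.5 and 137 CPM). The other receptors and the adaptor genes stayed within 2-fold over all FB. Igf2r, which clears IGF-II, was at 83.2 CPM in LI and 74.1 CPM in SI, Insr at 21.3 and 24.3 CPM, Irs1 at 12.0 and 12.5 CPM, Irs2 at 109 and 94.3 CPM, Shc1 at 48.4 and 46.1 CPM and Grb10 at 100.3 and 107 CPM. In male FB, Irs1 was at 3.69 CPM in LI and 11.04 CPM in SI (log2 ratio -1.36). Igfbpl1 and Igfals, a partner of IGFBP3 in blood, stayed under 1 CPM in FB, as did Igf2bp1, while Igf2bp2 (17.1 and 17.8 CPM) and Igf2bp3 (16.7 and 19.1 CPM) were close over all FB. Stc1, also an inhibitor of PAPP-A, was highest in pericytes of both (106 CPM in LI and 36.7 CPM in SI). Unlike Stc2, it was higher in FB of LI (7.21 and 2.46 CPM), but below the 10 CPM minimum and so outside the counts. In male FB it was at 19.3 CPM in LI and 2.17 CPM in SI (log2 ratio 2.67). The protease gene Htra3 (328 and 512 CPM in FB) and the IGFBP-domain genes Kazald1 (16.7 and 20.7 CPM), Esm1 (2.23 and 2.51 CPM), Crim1 (22.2 and 20.1 CPM) and Cyr61 (725 and 598 CPM), stayed within 2-fold over all FB. In male FB, Igf2bp3 (5.33 and 18.6 CPM, log2 ratio -1.63), Kazald1 (5.47 and 14.4 CPM, -1.25) and Htra3 (253 and 513 CPM, -1.02) were past 2-fold, lower in LI. The highest class was the same in both grafts for 14 of the 20 listed genes at 10 CPM in a class, against 50.4% of all genes.

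The genes most like each member across the 8 classes of both grafts were picked by Pearson's r of log2(CPM + 1) over 16 points, among 5026 genes that were neither members nor markers. The points share 2 libraries, and r is a description. Igfbp4 was closest to Slc39a13, a zinc transporter gene (r = 0.95), and the collagen crosslinking enzyme gene Loxl1 (0.92). Igfbp6 was closest to the matrix gene Emilin2 (0.94), Fmo1 (0.93) and Cilp (0.91). Igf1 was closest to Ost4 (0.94), S100a16 and Maged1, and Igf2 to Rab28 (0.92), Ap1s2 and Sh3glb2. Igfbp3 was closest to Ereg, which encodes an EGF receptor ligand (0.90), the transcription factor gene Sox9 (0.89) and Lrrc17 (0.88). Igf1r was closest to Setbp1 (0.88), Tmem47 and Nsa2, and Igfbp7 to Picalm (0.89), Kdm6b and Irf1. The likeness was weakest for Igfbp2 (Ndufa6, 0.81, Card19 and Tomm7) and Igfbp5 (Ddx39b, 0.78, Slirp and Zc3h15).

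Single FB carried several members at once. After thinning to 2000 UMIs, the median FB had 3 of the 9 members in both grafts, with at most 7, and the median pericyte had 2. Igfbp3 and Igf1 were paired differently in the grafts. Igf1 was detected in 49.4% of the 534 SI FB with Igfbp3 and in 32.5% of those without. In LI the shares were 34.6% of 2098 cells and 38.0%. Igfbp6 was detected in 14.8% of SI FB with Igfbp3 and 23.9% of those without, and in 25.6% and 32.0% in LI.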

How the data were processed

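The authors sequenced sorted graft MSC on the 10x Genomics system and aligned reads to mm10; the submitters' processing notes list Cell Ranger 3.1.0 and Seurat 3. They deposited raw UMI counts per gene and barcode, with no normalization, for 2 libraries (LI graft and SI graft, 1 each). The study's methods describe removal of debris and doublets by gene counts, read counts and mitochondrial expression during analysis in R. Whether the deposited counts precede that step was not stated, and doublets were left in here.

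From the counts, cells needed 500 genes or more and a mitochondrial UMI share of 10% or less. A cell joined a non-fibroblast class when the mean standardized level of its markers reached 0.8 with at least 3 markers detected and led the next class by 0.3. Of the rest, cells with at least 4 fibroblast markers were FB, and a subset needed a score of 0.4, 2 markers and the same lead. These limits were set after the data were seen. Classes with at least 50 cells in both libraries were compared. UMIs were summed per class, gene and library and scaled by the UMI total of that class (CPM). Intervals are exact Poisson, exact binomial or Clopper-Pearson at 95%. Genes at 10 CPM or more in 1 library were compared, with 2-fold as the mark and a pseudocount of 1 CPM. The ratio script was tested on simulated data. Each library was clustered apart (2000 variable genes, 30 principal components, 20 neighbours, resolution 0.8). For depth-matched shares, cells were thinned to 2000 UMIs and shallower cells left out.

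All 9 members are named, with 25 pathway genes and, for each member, the 3 most like genes at 50 CPM or more. The members, lists and contrasts were chosen with earlier results of these data known. Other genes were named after their values were seen. The 14 alternatives changed cell filters, doublets, classes, scaling, pseudocount, minimum, sex, MHC class II state, subset weights and depth, and 2 more were added after the data were seen. Gene positions are from GENCODE vM21 (GRCm38), promoters from RefSeq (GRCm38.p6). Python 3.11.15 with numpy 2.4.6, scipy 1.17.1, pandas 2.3.3, scanpy 1.11.5 and matplotlib 3.10.9 was used, and edgeR 4.0.16 in R 4.3.3 for TMM factors.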

Additional observations from a re-analysis of the deposited data

Results flagged for a closer look

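A pair of classes, or of libraries, moved in opposite directions for 4 contrasts. None of these differences was tested, since each class has 1 library per segment. For Igf1, the log2 ratio of LI over SI was 2.67 in ICC and -1.13 in Fgfr2 FB, with 11 UMIs behind the ICC level of the SI graft and a ratio of 0.25 in male Fgfr2 FB. For Igfbp5, it was 2.95 in CD81 FB and -1.41 in PDGFRAhi FB, at 1.42 and -1.53 in female cells, and at 4.75 and -0.11 in male cells, where the interval of the latter (-0.30 to 0.07) holds 0. For Igfbp6, it was 1.63 in SMC and -0.91 in Adventitial-like FB. The ratio of male over female FB for Igfbp5 was 1.90 on the log2 scale for LI cells but -0.27 for SI cells, and 47.4% of the male LI cells lay in the Areg-led cluster.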

How the results depend on the processing

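No paired analysis was possible because each segment has 1 library. The count of members at least 2-fold higher in LI FB was 2 (Igfbp3 and Igfbp5). It was 1, Igfbp3 alone, with the mean of the cells' own CPM, in female cells only, in FB without MHC class II UMIs, with fibroblast subsets weighted equally and, added after the data were seen, without the Areg-led LI cluster. It was 3 in male cells only, also added later, where Igfbp2 passed the 10 CPM minimum (15.0 CPM in male LI FB) and reached the mark. It was 2 in the other alternatives that give it. No member was 2-fold higher in SI under any of them. Over these settings the log2 ratio ran from 1.63 to 2.47 for Igfbp3 and from 0.22 to 2.39 for Igfbp5. The Igfbp6 ratio of 0.09 turned to -0.022 with the mean of the cells' own CPM, -0.076 in female cells and -0.36 with subsets weighted equally, and the Igf1r ratio of 0.16 turned to -0.050 in male cells. The causes were not tested. The number of members with the same highest class was 3 or 2 throughout, but with classes from clusters the 3 were Igfbp3, Igfbp4 and Igfbp6, in part in other classes, and Igfbp7 dropped out. Adventitial-like FB were not among the classes compared there. SI ICC, 50 cells, fell under the minimum in the stricter filter, with doublets removed, with classes from clusters, with a larger lead and in female cells, and Igf2 then had another highest class (10.8 and 16.2 CPM with the stricter filter). Depth limits the rare members: ICC levels of SI and most class levels of Igfbp2 rest on few UMIs.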

Other observations

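FB with MHC class II UMIs, a mark of interferon exposure, differed from FB without them in several members. In the LI graft, Igf1 was at 432 CPM in the 2468 positive and 316 CPM in the 5785 negative FB, and in the SI graft at 374 CPM in 2038 and 259 CPM in 3872. Among female cells alone the levels were 373 and 300.1 CPM in LI, and 315 and 241 CPM in SI. Igfbp4 was at 1707 and 1234 CPM in LI and at 1374 and 1005 CPM in SI, but at 1254 and 1208 CPM among female LI FB. Igfbp5 was higher in positive FB of LI (851 and 530.2 CPM) and lower in those of SI (293 and 337 CPM). These Igfbp5 levels pool the sexes. In LI, 72.8% of male and 22.5% of female FB were positive, and Igfbp5 was at 1502 CPM in male and 403 CPM in female FB. Igfbp3 was lower in positive FB of both grafts, at 252 and 314 CPM in LI and at 74.4 and 86.6 CPM in SI, while female SI FB were at 93.5 and 90.4 CPM.

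Mesothelial cells were too few for the comparison between grafts, with 32 cells in LI and 24 in SI. They held Igf1 at 575 CPM in LI (480.1 to 683) and 1040 CPM in SI (926 to 1164), and Igfbp6 at 2902 CPM in LI and 1426 CPM in SI. An Igfbp6 UMI was found in 31 of the 32 LI cells and 23 of the 24 SI cells.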
